A study of Mus musculus with 2 samples.

Results

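The insulin-like growth factor (IGF) family was followed through 10 genes, namely 2 ligands, 2 receptors and 6 binding proteins, in the mitral valves of mice. The genes were taken from the deposited table by symbol, and all 10 were found among its 33640 genes. They were chosen by family membership with the TPM values of these same 2 libraries already known, so their differences are given as a description and carry no test. The first library was made from 8 mitral valves pooled from 5-month-old mice heterozygous for the missense allele Fbn1C1039G (genotype Fbn1C1039G/+), and the second from 8 valves pooled from WT mice of the same age. Each pool mixed male and female tissue, and the labels name no treatment. Fibrillin-1, the product of Fbn1, builds the microfibrils outside cells, and the allele models Marfan syndrome in mice. With 1 library per genotype no difference has a replicate check, no error can be put on a value, and differences between mice within a pool are not seen. Values are TPM, an abundance scaled for transcript length and for the library total, so that levels of different genes can be set side by side.

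IGF1 and IGF2 are small secreted proteins related to insulin. Both act through the receptor tyrosine kinase IGF1R to promote growth and survival of cells, while IGF2R carries IGF2 to the lysosome and has no kinase of its own. The binding proteins hold the ligands outside the cell, on the matrix or in the circulation. They can withhold a ligand from its receptor or act as a store of it, and proteases that cut them set the ligand free. In heart valves and other connective tissue, interstitial cells of the fibroblast lineage and macrophages are known sources of IGF1.

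Igfbp7 was the most abundant family transcript, at 2424 TPM in the Fbn1C1039G/+ pool and 2074 TPM in the WT pool. Both ligands and the binding proteins Igfbp3 and Igfbp5 had less TPM in the Fbn1C1039G/+ pool, with ratios to the WT pool from 0.511 for Igfbp3 to 0.648 for Igfbp5. The receptor Igf2r and the binding proteins Igfbp4 and Igfbp7 were within 1.2 times of the WT pool. Igf1r was at 1.36 times its WT level, and the scarce Igfbp6 at 1.83 times.

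**Figure D1:**
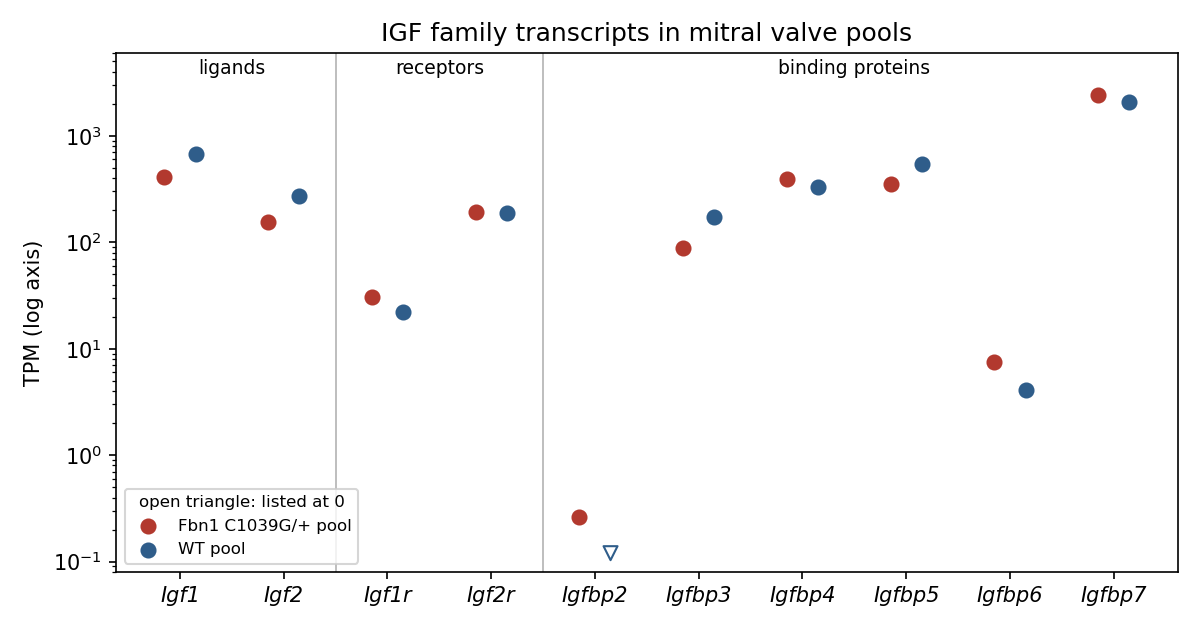
TPM (log axis) of the 10 IGF family genes in the Fbn1C1039G/+ pool (red) and the WT pool (blue), 1 library each; the open triangle marks a value listed at 0 and placed at the foot of the axis. Igf1, Igf2, Igfbp3 and Igfbp5 lie lower in the Fbn1C1039G/+ pool, and Igfbp7 lies above all others in both.

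Upstream sequence is shown for 4 members, of which Igf2 and Igfbp3 had less TPM in the Fbn1C1039G/+ pool and Igfbp4 and Igfbp7 somewhat more. Each line holds the 250 bases before an annotated start, which can lie inside the gene, 5′ to 3′ on the strand of the gene, from RefSeq (GRCm38.p6). Capitals mark matches, on either strand, to a first form of the TATA element (TATAAA), a second form (TATATA) and the GC box (GGGCGG, which reads CCGCCC on the opposite strand). The first form and the second can overlap each other in a longer run. Igf2 has 4 such windows in RefSeq, and the most downstream, which lies inside the span of the gene, is shown. The window at chr7:142666817-142667066, just before that span, held no match to these elements. Neither did the one at chr7:142661272-142661521, and the one at chr7:142658805-142659054 held 1 GC box. Windows of Igf1 and Igfbp5 overlap annotated exons and are not shown.
Igf2, chr7:142657497-142657746, minus strand: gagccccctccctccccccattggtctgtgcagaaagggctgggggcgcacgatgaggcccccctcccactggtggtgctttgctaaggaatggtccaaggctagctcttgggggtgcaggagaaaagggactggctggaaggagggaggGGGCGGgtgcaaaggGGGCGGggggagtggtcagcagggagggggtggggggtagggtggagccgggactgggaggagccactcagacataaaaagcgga
Igfbp3, chr11:7213924-7214173, minus strand: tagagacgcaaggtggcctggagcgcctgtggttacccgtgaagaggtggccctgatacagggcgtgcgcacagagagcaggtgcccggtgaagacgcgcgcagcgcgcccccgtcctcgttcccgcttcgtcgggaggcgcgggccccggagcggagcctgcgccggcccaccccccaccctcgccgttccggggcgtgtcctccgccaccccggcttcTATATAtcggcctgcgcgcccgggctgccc
Igfbp4, chr11:99040994-99041243, plus strand: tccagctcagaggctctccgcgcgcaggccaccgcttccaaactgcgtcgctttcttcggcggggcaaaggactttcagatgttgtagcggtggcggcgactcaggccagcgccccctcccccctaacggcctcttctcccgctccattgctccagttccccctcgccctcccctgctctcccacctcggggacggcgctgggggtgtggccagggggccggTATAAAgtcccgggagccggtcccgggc
Igfbp7, chr5:77408046-77408295, minus strand: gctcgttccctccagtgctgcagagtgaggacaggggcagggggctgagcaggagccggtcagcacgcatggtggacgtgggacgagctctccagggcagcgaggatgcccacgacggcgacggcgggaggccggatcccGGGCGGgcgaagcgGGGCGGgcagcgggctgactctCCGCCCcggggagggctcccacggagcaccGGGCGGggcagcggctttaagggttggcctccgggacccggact
The Igfbp3 window holds TATATA starting at position -30 from the gene start, and the Igfbp4 window holds TATAAA at position -28. The Igf2 window shown holds 2 GC boxes, and the Igfbp7 window holds 4 and neither TATA form. Among windows not shown, that of Igf1r holds 2 GC boxes, that of Igf2r 3 and 1 of those of Igfbp2 3. Of 32851 RefSeq windows of the same length, 12.4% held TATAAA, 5.25% TATATA and 32.7% GGGCGG. These are matches of letters and were not tested for use in the valve.

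Against this family stands a general offset between the libraries. Over the 17004 genes averaging at least 1 TPM over both pools, the median difference in log2(TPM + 1), Fbn1C1039G/+ minus WT, was 0.14, and over those averaging at least 100 TPM it was 0.05. On this scale 15.4% of the genes lay above the WT pool by 1.5-fold or more, and 4.73% lay below it by as much. The share of higher genes among those past 1.5-fold was 76.4% as deposited, 61.9% after centring on the median and 51.6% after quantile normalization. Fbn1 itself was at 126 TPM in the Fbn1C1039G/+ pool and 108 TPM in the WT pool, which does not check the genotype, since the allele changes an amino acid. Markers of valve interstitial fibroblasts were abundant in both pools, with Dcn at 9304 TPM in the Fbn1C1039G/+ pool and 11409 TPM in the WT pool. Cardiac muscle transcripts such as Tnnt2 were present too, at 506 TPM in the Fbn1C1039G/+ pool and 744 TPM in the WT pool.

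Of the 10 members 9 averaged at least 1 TPM, and Igfbp2 did not. Of these 9, 4 were at least 1.5-fold lower in the Fbn1C1039G/+ pool, beside 4.73% of all genes, and 1 was at least 1.5-fold higher, beside 15.4% of all genes. As deposited, none was past 2-fold on the log2(TPM + 1) scale, beside 4.81% of all genes higher and 1.72% lower. The median difference of the 9 was 0.02, against 0.14 over all genes. Relative to the median of 0.11 over genes averaging at least 10 TPM, Igf1 was at -0.86, Igf2 at -0.92, Igfbp3 at -1.07 and Igfbp5 at -0.74. Because the members were picked with these values in view, nothing is read from their counts.

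**Figure D2:**
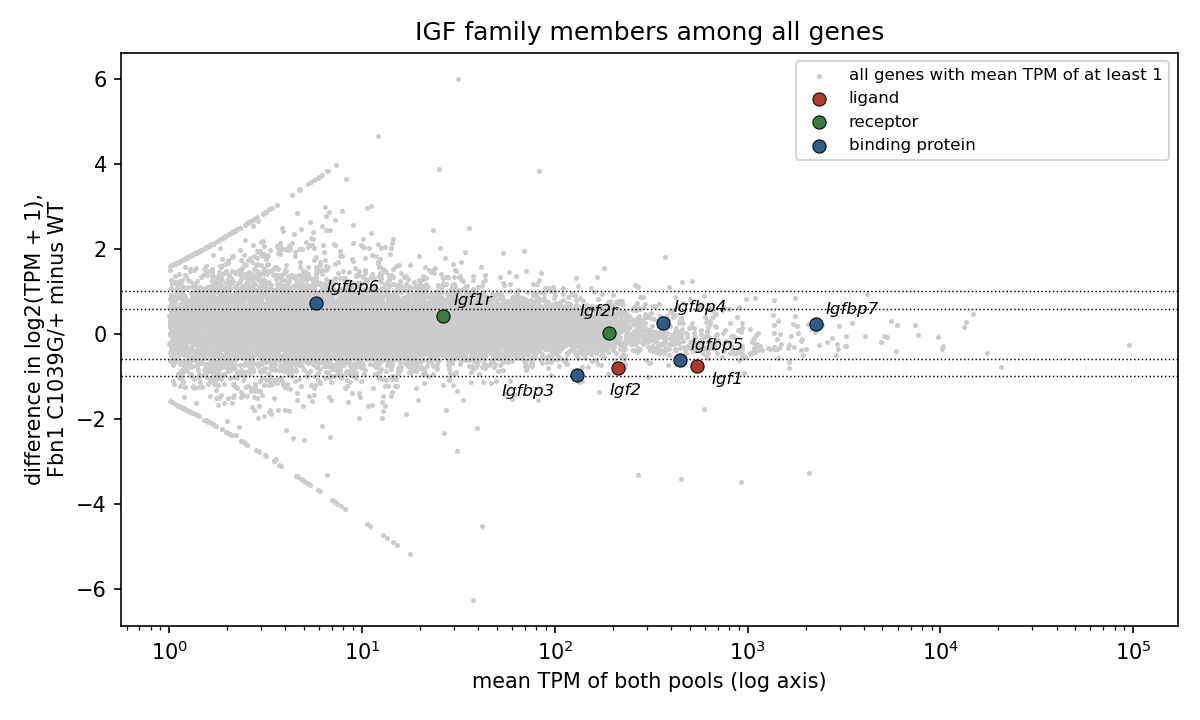
Difference in log2(TPM + 1), Fbn1C1039G/+ minus WT, against the mean TPM of both pools (log axis) for 17004 genes in grey and 9 IGF family members in colour; dotted lines mark 1.5-fold and 2-fold. Igf1, Igf2, Igfbp3 and Igfbp5 lie between the 1.5-fold and 2-fold lines on the lower side.

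Igf1, a growth factor that the liver and many local cells secrete (ENSMUSG00000020053.18, chromosome 10, 87858265 to 87937042, plus strand, mm10), was at 406 TPM in the Fbn1C1039G/+ pool and 682 TPM in the WT pool. It ranked 235 among all genes of the Fbn1C1039G/+ pool and 141 among those of the WT pool, which makes it the second most abundant family member in both. Its ratio was 0.596 and its difference in log2(TPM + 1) was -0.75. Among the 500 genes closest in mean TPM, the central 95% had differences from -0.65 to 0.81, so that Igf1 lay below this range.

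Igf2 is imprinted and, outside the brain, expressed from the paternal copy, with its highest levels before birth. It was at 155 TPM in the Fbn1C1039G/+ pool and 272 TPM in the WT pool (ENSMUSG00000048583.16, chromosome 7, 142650766 to 142666816, minus strand). Its ratio was 0.570 and its difference -0.81, below the range of -0.63 to 0.78 that held the central 95% of its 500 neighbours in level. The balance between the ligands was close in both libraries, with 2.62 times as much Igf1 as Igf2 in the Fbn1C1039G/+ pool and 2.51 times as much in the WT pool. Summed over both ligands, TPM came to 561 in the Fbn1C1039G/+ pool and 954 in the WT pool, a ratio of 0.588.

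The receptor transcripts differed less. Igf1r, the kinase through which both ligands signal, was at 30.4 TPM in the Fbn1C1039G/+ pool and 22.4 TPM in the WT pool (ENSMUSG00000005533.10, chromosome 7, 67952827 to 68233668, plus strand). Its difference of 0.43 lay inside the range of -0.43 to 0.93 of its neighbours in level. Igf2r was at 192 TPM in the Fbn1C1039G/+ pool and 189 TPM in the WT pool, a ratio of 1.02 (ENSMUSG00000023830.14, chromosome 17, 12682406 to 12769664, minus strand). The sign of its difference of 0.02 was negative after centring (-0.09), under quantile normalization and with abundant gene classes left out.

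Set against their receptors within each library, the ligands were fewer in the Fbn1C1039G/+ pool. There were 13.3 Igf1 transcripts for each Igf1r transcript in the Fbn1C1039G/+ pool and 30.5 in the WT pool. Igf2 stood at 0.805 times Igf2r in the Fbn1C1039G/+ pool and 1.43 times in the WT pool. Igf2r exceeded Igf1r by 6.32 times in the Fbn1C1039G/+ pool and 8.47 times in the WT pool. A scaling common to all genes leaves such ratios as they are, but the offset between the libraries varied with level, and each ratio rests on 1 library per genotype.

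Among the binding proteins, Igfbp3 and Igfbp5 had less TPM in the Fbn1C1039G/+ pool. Igfbp3, which carries most IGF in blood in a complex with the acid-labile subunit, was at 87.7 TPM in the Fbn1C1039G/+ pool and 171 TPM in the WT pool (ENSMUSG00000020427.11, chromosome 11, 7206086 to 7213923, minus strand). Its difference of -0.96 was the largest in size of the 9 members, and it lay below the range of -0.49 to 0.71 of its 500 neighbours in level. Of those 500, 3 had a lower value. The difference passed 2-fold under 3 alternatives, at -1.07 after centring on the median, -1.06 under quantile normalization and -1.02 with abundant gene classes left out.

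Igfbp5, a binding protein that attaches to extracellular matrix, was at 352 TPM in the Fbn1C1039G/+ pool and 544 TPM in the WT pool (ENSMUSG00000026185.8, chromosome 1, 72857932 to 72874884, minus strand). Its difference was -0.63, inside the neighbour range of -0.69 to 0.80, and its ratio was 0.648. Igfbp3 stood at 0.249 times Igfbp5 in the Fbn1C1039G/+ pool and 0.315 times in the WT pool.

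Each of these genes has a close genomic neighbour of the same family that was hardly detected. Igfbp2 ends 5457 bases from the end of Igfbp5 on chromosome 1 and is transcribed towards it. It was at 0.262 TPM in the Fbn1C1039G/+ pool and listed at 0 in the WT pool, so no fold is given. Igfbp1 ends 3539 bases from the end of Igfbp3 on chromosome 11, likewise facing it, and was listed at 0 in both pools. Igfals, which encodes the acid-labile subunit, was at 0.0975 TPM in the Fbn1C1039G/+ pool and 0.0826 TPM in the WT pool.

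The remaining binding proteins had more TPM in the Fbn1C1039G/+ pool. Igfbp4, which restrains IGF action until the protease PAPP-A cuts it, was at 397 TPM in the Fbn1C1039G/+ pool and 331 TPM in the WT pool (ENSMUSG00000017493.12, chromosome 11, 99041244 to 99054392, plus strand). Its difference of 0.26 lay inside the neighbour range of -0.65 to 0.78. Igfbp7, a relative that binds IGFs only weakly and is abundant in vessel walls, had a difference of 0.23, inside the range of -0.71 to 0.83 (ENSMUSG00000036256.13, chromosome 5, 77349240 to 77408041, minus strand). It ranked 29 among all genes of the Fbn1C1039G/+ pool and 38 among those of the WT pool.

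Igfbp6, which prefers IGF2 over IGF1, was at 7.46 TPM in the Fbn1C1039G/+ pool and 4.08 TPM in the WT pool (ENSMUSG00000023046.6, chromosome 15, 102144362 to 102149511, plus strand). Its difference of 0.74 passed 1.5-fold but lay well inside the range of -0.96 to 2.06 of genes of its low level. It did not pass 1.5-fold with a pseudocount of 5 (0.46) or under quantile normalization (0.53).

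The makeup of the binding protein transcripts differed between the libraries while their sum was close. The 6 genes summed to 3269 TPM in the Fbn1C1039G/+ pool and 3125 TPM in the WT pool, a ratio of 1.05. Igfbp7 took 74.2% of this sum in the Fbn1C1039G/+ pool and 66.4% in the WT pool. Igfbp5 took 10.8% in the Fbn1C1039G/+ pool and 17.4% in the WT pool, and Igfbp3 took 2.68% in the Fbn1C1039G/+ pool and 5.49% in the WT pool. Igfbp4 took 12.1% in the Fbn1C1039G/+ pool and 10.6% in the WT pool. Without Igfbp7, the remaining 5 summed to 845 TPM in the Fbn1C1039G/+ pool and 1051 TPM in the WT pool.

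**Figure D3:**
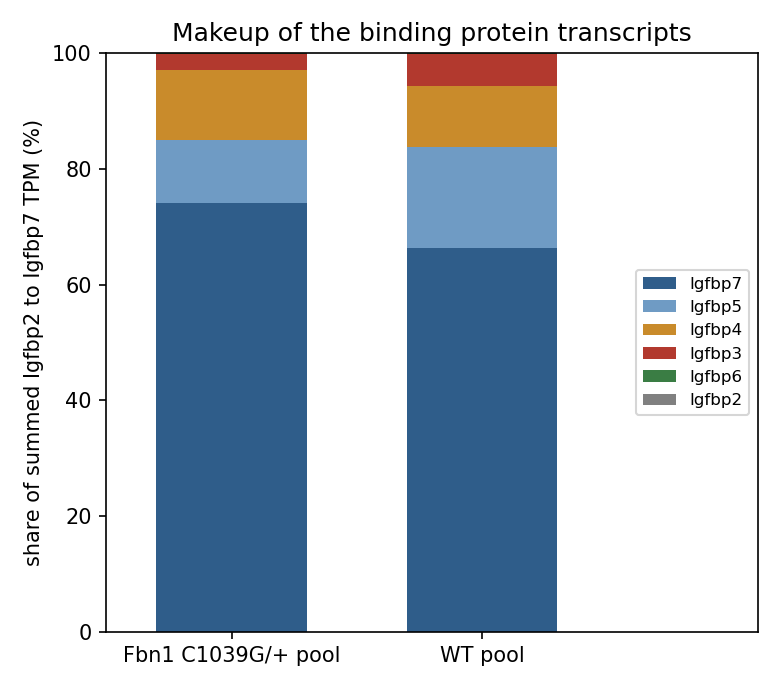
Share (%) of the summed TPM of Igfbp2 to Igfbp7 taken by each gene in the Fbn1C1039G/+ pool (left) and the WT pool (right), 1 library each. The Igfbp5 and Igfbp3 parts are smaller in the Fbn1C1039G/+ pool, and the Igfbp7 part is larger (74.2% against 66.4%); Igfbp6 and Igfbp2 are too small to see.

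Igfbp4 and Igfbp5 changed places in the order of levels. Igfbp5 stood at 0.888 times Igfbp4 in the Fbn1C1039G/+ pool and 1.64 times in the WT pool. Igf2 and Igf2r also changed places, with Igf2r the higher in the Fbn1C1039G/+ pool. The other 6 members held the same place in both pools, from Igfbp7 and Igf1 at the top to Igf1r, Igfbp6 and Igfbp2 at the bottom. Without replicates it cannot be judged which neighbours in this order differ beyond their spread. The summed ligands came to 0.172 times the summed binding proteins in the Fbn1C1039G/+ pool and 0.305 times in the WT pool. Without Igfbp7 the same ratio was 0.664 in the Fbn1C1039G/+ pool and 0.907 in the WT pool.

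Genes near a member in value were sought by distance in log2(TPM + 1) over the 2 libraries, leaving out Gm, Rik and ribosomal protein symbols. Nearest to Igfbp3 were Fabp3, Crispld2 and Ccdc3. Fabp3, a fatty acid carrier of muscle, was at 91.4 TPM in the Fbn1C1039G/+ pool and 180 TPM in the WT pool. Nearest to Igf2 were Il11ra1, Htra3 and Mb, the myoglobin gene, which was at 173 TPM in the Fbn1C1039G/+ pool and 288 TPM in the WT pool. With only 2 libraries this likeness says no more than that the pairs of values are alike.

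Genes that share the IGF-binding domain, or act with the binding proteins, differed in both directions. Of 10 measured relatives with this domain or in this complex, 1 was past 1.5-fold higher and 3 past 1.5-fold lower in the Fbn1C1039G/+ pool, beside 15.4% higher and 4.73% lower over all genes. Their median difference was 0.20, against 0.14 over all genes. The serine proteases Htra3 and Htra1 and the binding protein relative Kazald1 were the 3 lower ones. Htra3 was at 160 TPM in the Fbn1C1039G/+ pool and 245 TPM in the WT pool, a difference of -0.61. Htra1 was at 32.5 TPM in the Fbn1C1039G/+ pool and 53.0 TPM in the WT pool, and Kazald1 at 10.8 TPM in the Fbn1C1039G/+ pool and 20.5 TPM in the WT pool. The higher one was the scarce Wisp1, at 3.75 TPM in the Fbn1C1039G/+ pool and 1.95 TPM in the WT pool, named after its value was seen. Ctgf, the connective tissue growth factor gene, was at 401 TPM in the Fbn1C1039G/+ pool and 298 TPM in the WT pool. Wisp2 was at 94.7 TPM in the Fbn1C1039G/+ pool and 87.8 TPM in the WT pool.

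Of 13 measured proteases that cut binding proteins, and their inhibitors, 1 was past 1.5-fold higher and 2 past 1.5-fold lower, beside 15.4% and 4.73% of all genes. Their median was -0.03, against 0.14 over all genes. The lower ones were again Htra1 and Htra3, which stand on both lists, and the higher one was Adam9, at 49.8 TPM in the Fbn1C1039G/+ pool and 32.3 TPM in the WT pool. The abundant Mmp2 was at 374 TPM in the Fbn1C1039G/+ pool and 338 TPM in the WT pool, and the lysosomal protease gene Ctsd at 354 TPM in the Fbn1C1039G/+ pool and 363 TPM in the WT pool. Pappa, which encodes the protease that cuts IGFBP4, was at 8.20 TPM in the Fbn1C1039G/+ pool and 8.55 TPM in the WT pool, and was named for that role outside the rule.

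Of 32 genes of insulin and IGF receptor signalling, a list that includes the receptor genes Insr and Insrr, 31 were measured. Of these, 2 were at least 1.5-fold higher and none lower, beside 15.4% and 4.73% of all genes. Their median was 0.10, against 0.14 over all genes and 0.11 over those averaging at least 10 TPM. The 2 higher genes were Insrr and Rps6kb1. Insrr, an orphan receptor of the insulin receptor family, was at 8.96 TPM in the Fbn1C1039G/+ pool and 4.70 TPM in the WT pool. Rps6kb1, the S6 kinase gene, was at 58.5 TPM in the Fbn1C1039G/+ pool and 37.8 TPM in the WT pool. The regulatory subunit gene Pik3r2 was at 9.82 TPM in the Fbn1C1039G/+ pool and 6.80 TPM in the WT pool. The abundant kinase gene Gsk3b was at 133 TPM in the Fbn1C1039G/+ pool and 127 TPM in the WT pool.

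Growth hormone is the main inducer of Igf1 in the liver, through its receptor and the factor STAT5B. Of the 8 genes of this axis, all measured, 1 was at least 1.5-fold lower and none higher on the log2(TPM + 1) scale, with a median of 0.02, beside 4.73% lower, 15.4% higher and a median of 0.14 over all genes. This was Stat5b, at 7.48 TPM in the Fbn1C1039G/+ pool and 12.8 TPM in the WT pool, a difference of -0.70. The receptor gene Ghr was at 276 TPM in the Fbn1C1039G/+ pool and 256 TPM in the WT pool. The feedback inhibitor gene Socs2 was at 211 TPM in the Fbn1C1039G/+ pool and 223 TPM in the WT pool. Jak2, the kinase bound to the receptor, was at 24.9 TPM in the Fbn1C1039G/+ pool and 22.2 TPM in the WT pool. Stat5a was at 11.0 TPM in the Fbn1C1039G/+ pool and 8.07 TPM in the WT pool, and Socs3 at 7.81 TPM in the Fbn1C1039G/+ pool and 5.11 TPM in the WT pool, a ratio of 1.53 in TPM but a difference of 0.53 in log2(TPM + 1).

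No other imprinted growth gene on the list was past 1.5-fold on the log2(TPM + 1) scale. Nor was any listed gene that handles Igf2 mRNA or shares the sorting route of IGF2R. Over all genes 15.4% were higher and 4.73% lower by as much, with a median difference of 0.14. This scale understates scarce genes such as Igf2bp1 and Igf2bp2. The 8 measured imprinted genes had a median of -0.07. Gnas was at 540 TPM in the Fbn1C1039G/+ pool and 621 TPM in the WT pool, Grb10 at 44.8 TPM in the Fbn1C1039G/+ pool and 52.7 TPM in the WT pool, Peg3 at 42.5 TPM in the Fbn1C1039G/+ pool and 44.4 TPM in the WT pool, and Ndn at 11.0 TPM in the Fbn1C1039G/+ pool and 15.3 TPM in the WT pool. The 3 genes of IGF2 mRNA-binding proteins had a median of 0.54. Igf2bp3 was at 21.4 TPM in the Fbn1C1039G/+ pool and 14.5 TPM in the WT pool, Igf2bp1 at 5.60 TPM in the Fbn1C1039G/+ pool and 3.54 TPM in the WT pool, and Igf2bp2 at 0.899 TPM in the Fbn1C1039G/+ pool and 1.69 TPM in the WT pool.

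The 8 sorting genes had a median of 0.12, against 0.14 over all genes. The other mannose phosphate receptor gene, M6pr, was at 61.9 TPM in the Fbn1C1039G/+ pool and 57.3 TPM in the WT pool. Gnptab and Nagpa, whose enzymes make the sorting tag, were at 47.8 and 68.8 TPM in the Fbn1C1039G/+ pool and at 39.4 and 66.2 TPM in the WT pool. Gga3 was at 38.1 TPM in the Fbn1C1039G/+ pool and 28.9 TPM in the WT pool. Gnptg was at 24.4 TPM in the Fbn1C1039G/+ pool and 30.4 TPM in the WT pool, and Sort1 at 6.83 TPM in the Fbn1C1039G/+ pool and 9.21 TPM in the WT pool.

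**Figure D4:**
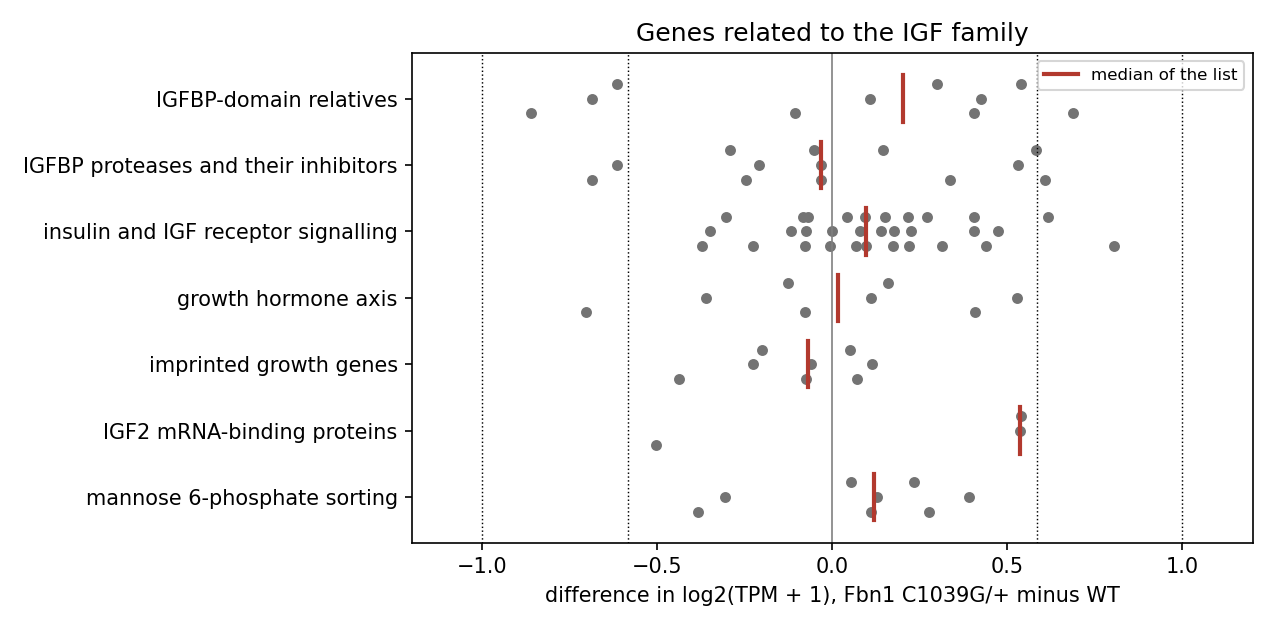
Difference in log2(TPM + 1), Fbn1C1039G/+ minus WT, of each measured gene (grey points, 1 library per genotype) in 7 lists related to the IGF family; red bars are list medians and dotted lines mark 1.5-fold and 2-fold. Medians lie between -0.07 and 0.54, and no gene on these lists is past 2-fold.

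In whole tissue, fewer cells of a type and less RNA per cell cannot be told apart, so markers of cell types are set beside the family. The part of any of these cell types in the values of the family was not tested. Summed macrophage markers, set beside Igf1, had more TPM in the Fbn1C1039G/+ pool. The 8 resident-type markers summed to 416 TPM in the Fbn1C1039G/+ pool and 359 TPM in the WT pool. None of them was past 1.5-fold, beside 15.4% of all genes higher and 4.73% lower. Of these 8 markers 7 were higher, beside 64.9% of all genes. Their median difference of 0.16 was near the 0.14 over all genes. The 8 general macrophage markers summed to 857 TPM in the Fbn1C1039G/+ pool and 771 TPM in the WT pool. Of these 8, 7 were higher, beside 64.9% of all genes, with a median difference of 0.18. Fcgr1 alone was past 1.5-fold higher, beside 15.4% of all genes, at 7.72 TPM in the Fbn1C1039G/+ pool and 3.98 TPM in the WT pool. The 10 interstitial fibroblast markers summed to 20163 TPM in the Fbn1C1039G/+ pool and 21352 TPM in the WT pool, a ratio of 0.944. This sum was carried by Dcn. Of the 10, 6 had more TPM in the Fbn1C1039G/+ pool, beside 64.9% of all genes, and Postn was past 1.5-fold higher. The median difference of the 10 was 0.13, against 0.14 over all genes. Endothelial markers, set beside Igfbp7, summed to 827 TPM in the Fbn1C1039G/+ pool and 845 TPM in the WT pool over 8 genes. Of these, 2 were higher, beside 64.9% of all genes, and 6 lower, with a median difference of -0.14. Smooth muscle and pericyte markers summed to 542 TPM in the Fbn1C1039G/+ pool and 464 TPM in the WT pool over 9 genes. Of 8 measured, 4 were higher and 4 lower, with a median of 0.02.

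Markers of several other cell types had less TPM in the library in which Igf1, Igf2, Igfbp3 and Igfbp5 were lower. The part of these cell types in the values of these 4 genes was not tested. The counts of lower markers stand beside 64.9% of all genes that were higher in the Fbn1C1039G/+ pool. Cartilage-like valve genes were lower in 7 of 7 measured members, with sums of 2056 TPM in the Fbn1C1039G/+ pool and 3323 TPM in the WT pool over 9 genes. Cardiac muscle markers were lower in 8 of 10, with sums of 1995 TPM in the Fbn1C1039G/+ pool and 2667 TPM in the WT pool. Lymphatic endothelial markers were lower in 6 of 6, summing to 154 TPM in the Fbn1C1039G/+ pool and 328 TPM in the WT pool. Ccl21a carried most of this gap, at 94.3 TPM in the Fbn1C1039G/+ pool and 244 TPM in the WT pool. Prox1, Flt4 and Pdpn had ratios to the WT pool of 0.845, 0.821 and 0.873. The scarcer Mmrn1 and Reln had ratios of 0.119 and 0.261. T cell markers were lower in 5 of 6, with 54.4 TPM in the Fbn1C1039G/+ pool and 125 TPM in the WT pool. Trbc2 carried most of this gap, at 7.31 TPM in the Fbn1C1039G/+ pool and 54.7 TPM in the WT pool. Cd3d was the higher one, at 26.9 TPM in the Fbn1C1039G/+ pool and 19.7 TPM in the WT pool. Melanocyte markers were lower in 5 of 5, with 66.6 TPM in the Fbn1C1039G/+ pool and 129 TPM in the WT pool. Red blood cell transcripts were lower in 5 of 5, summing to 687 TPM in the Fbn1C1039G/+ pool and 6801 TPM in the WT pool. The globin genes carried this sum, while Alas2 was at 23.3 TPM in the Fbn1C1039G/+ pool and 27.6 TPM in the WT pool.

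Summed myeloid markers had more TPM instead, and the counts of higher ones stand beside 64.9% of all genes. Neutrophil markers summed to 104 TPM in the Fbn1C1039G/+ pool and 18.5 TPM in the WT pool over 8 genes, with Ly6g listed at 0 in both. Of 7 measured, 5 were higher, and S100a9, S100a8, Csf3r and Cxcr2 carried the sum, while Camp and Retnlg were lower. Monocyte markers summed to 72.2 TPM in the Fbn1C1039G/+ pool and 24.5 TPM in the WT pool over 7 genes, with 6 of 6 measured higher. Schwann cell markers summed to 60.1 TPM in the Fbn1C1039G/+ pool and 74.0 TPM in the WT pool over 5 genes. Adipocyte markers summed to 21.5 TPM in the Fbn1C1039G/+ pool and 29.6 TPM in the WT pool over 6 genes, with Lep listed at 0 in both. Epicardial and mesothelial markers were near 0, at sums of 3.33 TPM in the Fbn1C1039G/+ pool and 4.27 TPM in the WT pool over 6 genes.

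**Figure D5:**
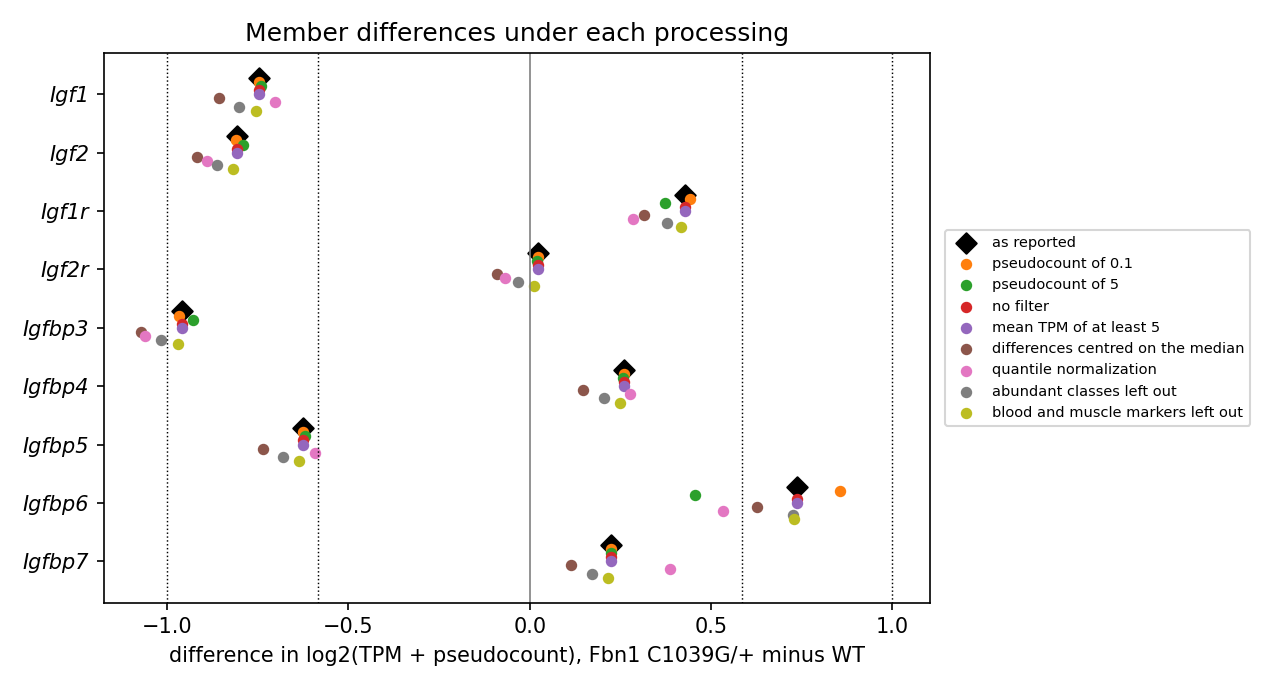
Difference in log2(TPM + pseudocount), Fbn1C1039G/+ minus WT, of 9 IGF family members as reported (black diamonds) and under 8 alternatives (coloured points), with dotted lines at 1.5-fold and 2-fold. Igf1, Igf2, Igfbp3 and Igfbp5 lie beyond the 1.5-fold line on the lower side under each, while Igf2r straddles 0. The 2 filter settings leave a gene's own difference as it is. Centring shifts all differences by the same amount, and leaving out gene sets only rescales each library.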

How the data were processed

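RNA from 8 pooled mitral valves of each genotype was amplified (Ovation RNAseq system v2), made into Nextera XT libraries and read on an Illumina sequencer, per the labels' protocols. The submitters' processing notes name Trimmomatic, HISAT2, kallisto and mm10. Their versions, the gene annotation and the summing of transcripts are not given in the sources used. The authors deposited TPM per gene symbol. TPM keeps no depth, so the depth is unknown and no interval or floor is given. Estimated reads can be divided among similar genes, and amplification makes low values less certain.

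Columns were matched to libraries by genotype. Differences are log2(TPM + 1), Fbn1C1039G/+ minus WT, with a pseudocount of 1, which understates low genes. Counts cover genes averaging at least 1 TPM, past 1.5-fold or 2-fold. No test was run. The 500 genes nearest in mean TPM describe the spread at that level and are no test. The differencing was tested on simulated data.

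The members, 7 pathway lists and 16 marker lists were chosen with earlier results of these data known. Named were all members, from each pathway list the 3 most abundant genes and the 3 most different averaging at least 5 TPM, and the 3 genes nearest to each of the 2 most different members. The rule also took the 2 most abundant genes of each marker list, which are covered by the list sums. Some items that the rule takes are not reported here. Single-gene ratios, other single marker genes, promoter windows and motifs were chosen after values were seen. Symbols absent under newer names were matched by older ones (Ctgf, Cyr61, Nov, Wisp). Coordinates are from GENCODE M21 (GRCm38, mm10), and windows from RefSeq, which holds all 10 members. Alternatives were 2 other pseudocounts (0.1 and 5), no filter or 5 TPM, centring over genes averaging at least 10 TPM, quantile normalization, and TPM rescaled without Gm, Rik, ribosomal protein, globin and mitochondrial genes (the abundant classes) or without blood and muscle markers. Python 3.11.15, numpy 2.4.6, pandas 2.3.3 and matplotlib 3.10.9 were used.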

Additional observations from a re-analysis of the deposited data

How the results depend on the processing

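No paired analysis was possible because each genotype has 1 library. For the same reason leaving out a replicate was not possible. Of the 8 alternatives, the 2 filters cannot change a gene's own difference. Leaving out blood and muscle markers or the abundant classes only rescales the TPM of all other genes alike. Centring shifts all differences by the same amount, and the pseudocounts matter little at high TPM. Under the 8 alternatives Igf1, Igf2, Igfbp3 and Igfbp5 stayed past 1.5-fold lower. Their ranges were -0.86 to -0.70, -0.92 to -0.79, -1.07 to -0.93 and -0.74 to -0.59. Igf1r ranged from 0.29 to 0.44, Igfbp4 from 0.15 to 0.28 and Igfbp7 from 0.11 to 0.39. Igf2r ranged from -0.09 to 0.02 and changed sign under 3. The 1 member past 1.5-fold higher, Igfbp6, became 0 members with a pseudocount of 5 and under quantile normalization. The number past 2-fold lower, 0 as reported, was 1 (Igfbp3) after centring, under quantile normalization and with abundant classes left out. The log2 ratio of the summed binding proteins ran from -0.05 to 0.18 and that of the summed ligands from -0.88 to -0.76. No pathway list median passed 1.5-fold under any alternative.

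Counts over all genes moved by more than 1.5 times under some alternatives. The 2613 genes at least 1.5-fold higher became 1172 with a pseudocount of 5, 1530 at a mean of 5 TPM and 1503 under quantile normalization. The 805 lower ones became 358, 399 and 1409 under the same settings, and 1230 with no filter. The 818 genes at least 2-fold higher became 1264 with a pseudocount of 0.1, 209 with 5, 360 at 5 TPM, 540 under quantile normalization and 499 with abundant classes left out. The 293 lower ones became 464, 87, 103 and 462 under the first 4 of these. Fewer genes are counted at 5 TPM and more with no filter; the other causes were not tested. Igfbp6 and Igfbp2 rest on low TPM of unknown depth.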
